A study of Mus musculus with 2 samples.

Results

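Peaks of EP300 at the nuclear genes for the subunits of the mitochondrial respiratory chain were examined in the newborn mouse heart. The genes were taken from the GENCODE M21 annotation of the GRCm38 (mm10) genome by symbol alone: those starting with Ndufa, Ndufb, Ndufc, Ndufs, Ndufv, Uqcr, Cox4i, Cox5, Cox6, Cox7, Cox8 or Atp5, with Sdha, Sdhb, Sdhc, Sdhd and Cyc1 and without the Ndufaf assembly factors. This gave 86 genes of 21829 protein-coding genes, and 88 of the 15570 peaks that could be assigned to a gene. Of these genes, 38 belong by symbol to complex I, 4 to complex II, 9 to complex III, 18 to complex IV and 17 to complex V.

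The samples were 2 libraries of chromatin immunoprecipitation with an antibody to EP300 (ChIP-seq), both from whole heart tissue of postnatal mice of the strain B6NCrl at age 0 days, with no treatment or altered allele named in the labels. They are numbered as biological replicates, but both carry one biosample and one donor identifier, so their spread may be technical. The design holds this single group and no other tissue, age or treatment, so no conditions were compared and no test was run. The results rest on the optimal list, a set of 17372 peaks called on the pooled reads and filtered by IDR (irreproducible discovery rate), a measure of how alike a peak ranks in separate lists. Whole heart mixes cell types, so more cells with a peak and a stronger peak per cell cannot be told apart.

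EP300 is a histone acetyltransferase without sequence preference of its own that DNA-binding factors bring to chromatin. The respiratory chain passes electrons from NADH (complex I) and succinate (complex II) through complexes III and IV to oxygen, and complex V, the ATP synthase, makes ATP from the proton gradient that results. The mammalian heart turns at birth from a mainly glycolytic metabolism to the oxidation of fatty acids, and its muscle cells are packed with mitochondria. Nuclear subunit genes are known targets of the factors NRF1, GABP (an ETS factor), YY1 and the estrogen-related receptors (ERR), the last being orphan nuclear receptors that act with the coactivators encoded by Ppargc1a and Ppargc1b.

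Promoter DNA is shown first for genes with the strongest promoter peaks, because the results turn on them. The stretch is the one just upstream of the TSS, with annotated untranslated parts left out, and is not the 200 bp centred on the summit in which motifs are counted below. Each run is the mm10 reference read 5′ to 3′ along the strand of the gene (plus for Atp5b and Ndufa11, minus for Ndufa4, Atp5l, Cox6a2, Cox8b and Cox6a1), in lower case with matches to any of 16 searched motifs in capitals. The window for Atp5b (chr10:128083073-128083272) has an SP/KLF match (GGGGCGGG on the opposite strand), the window for Ndufa4 (chr6:11907498-11907697) has no match, and the window for Atp5l (chr9:44920743-44920942) has an E-box CACGTG and, on the opposite strand, the nuclear receptor element AAGGTCA. The shorter window for Ndufa11 (chr17:56717686-56717766) has the palindromic core of NRF1 sites (CGCANGCGC, matched on both strands).
Atp5b: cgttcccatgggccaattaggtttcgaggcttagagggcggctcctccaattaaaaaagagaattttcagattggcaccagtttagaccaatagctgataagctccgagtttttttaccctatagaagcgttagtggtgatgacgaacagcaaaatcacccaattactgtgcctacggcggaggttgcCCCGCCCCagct
Ndufa4: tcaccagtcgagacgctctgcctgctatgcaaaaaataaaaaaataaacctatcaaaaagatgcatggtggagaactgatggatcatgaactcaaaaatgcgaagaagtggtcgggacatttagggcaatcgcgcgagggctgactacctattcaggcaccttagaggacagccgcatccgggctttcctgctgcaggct
Atp5l: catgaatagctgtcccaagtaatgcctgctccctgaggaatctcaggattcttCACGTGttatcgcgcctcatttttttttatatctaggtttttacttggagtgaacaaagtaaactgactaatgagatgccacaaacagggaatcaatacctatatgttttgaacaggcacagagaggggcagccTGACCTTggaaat
Ndufa11: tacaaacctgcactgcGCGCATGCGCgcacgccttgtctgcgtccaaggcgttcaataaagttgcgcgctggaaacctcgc

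The paralogues of complex IV with tissue forms are shown next. Cox6a2 (chr7:128206388-128206587) and Cox8b (chr7:140900447-140900646), which encode the forms found in heart and skeletal muscle, each have an E-box CAGCTG, and Cox6a2 also has a MEF2 match. The 200 bp at the Cox6a2 summit, which reach past the TSS, further hold a TEAD and an NFY match outside the printed stretch. Cox6a1 (chr5:115348982-115349181), the widely expressed partner of Cox6a2, has NRF1 matches and an SP/KLF match and no peak in the optimal list.
Cox6a2: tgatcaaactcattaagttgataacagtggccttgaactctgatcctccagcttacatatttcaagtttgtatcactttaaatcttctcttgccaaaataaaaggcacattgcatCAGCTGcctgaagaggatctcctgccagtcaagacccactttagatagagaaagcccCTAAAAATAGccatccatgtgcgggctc
Cox8b: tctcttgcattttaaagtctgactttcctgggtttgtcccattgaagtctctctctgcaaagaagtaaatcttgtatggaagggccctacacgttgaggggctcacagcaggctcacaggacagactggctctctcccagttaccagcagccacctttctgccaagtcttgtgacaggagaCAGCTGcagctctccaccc
Cox6a1: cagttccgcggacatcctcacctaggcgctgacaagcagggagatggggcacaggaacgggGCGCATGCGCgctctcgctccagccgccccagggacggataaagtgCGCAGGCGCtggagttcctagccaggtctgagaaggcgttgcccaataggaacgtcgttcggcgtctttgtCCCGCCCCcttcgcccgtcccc

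The element AAGGTCA stood under 13 promoter peaks of the family, 1 in each of 13 genes. It is given here read along the strand of the match, in capitals within 29 bases, for 10 of them in order of peak signal. The positions are chr9:44920738-44920766 for Atp5l, chr2:174464060-174464088 for Atp5e, chr2:73911361-73911389 for Atp5g3, chr15:102670919-102670947 for Atp5g2, chr1:63177040-63177068 for Ndufs1, chr12:111966964-111966992 for Atp5mpl, chr19:7217537-7217565 for Cox8a, chr3:51408737-51408765 for Ndufc1, chr9:108936896-108936924 for Uqcrc1 and chr2:10080165-10080193 for Atp5c1. The match lay on the minus strand at Ndufs1 and Atp5c1 and on the plus strand at the other 8.
Atp5l: tccccatttccAAGGTCAggctgcccctc
Atp5e: ccggcagcaggAAGGTCAggcctgagtag
Atp5g3: ggaagacgctcAAGGTCActttgtaacaa
Atp5g2: tgggagctagcAAGGTCAgggcggccacg
Ndufs1: gctagaggttaAAGGTCAaggtccgttcc
Atp5mpl: acagaatgggaAAGGTCAcagagcacgca
Cox8a: aggaccagtccAAGGTCAgggagtcaaga
Ndufc1: cgcggccagtgAAGGTCActgcaggtcgg
Uqcrc1: agggccgtgggAAGGTCAtggcggagggc
Atp5c1: tcaaagagaacAAGGTCAcggtctgatcc

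Respiratory chain genes held EP300 peaks at their promoters more often than protein-coding genes at large, while a similar share had a peak away from promoters. A peak was assigned to the nearest start of a protein-coding transcript (TSS) within 100 kb, so the link to a gene is one of distance only. By that rule 55 of 86 genes (64.0%, exact 95% interval 52.9% to 74.0%) had a peak, against 31.9% of all protein-coding genes. A promoter-proximal peak, with its summit within 1 kb of the TSS, was found for 48 of 86 (55.8%), against 19.0% of all genes. A distal peak was found for 15 of 86 (17.4%), against 19.3% of all genes, and distal peaks numbered 0.267 per gene, against 0.447 over all genes. Of the family's 88 peaks, 65 were promoter-proximal (73.9%, interval 63.4% to 82.7%), against 37.3% of all assigned peaks. These intervals, like all below, are Clopper-Pearson intervals and cover counting error only.

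The family's peaks were close in height to those of other genes. Their median signal was 34.0, against 30.6 for all assigned peaks, where signal is the authors' value of peak height, whose formula is not stated. The range was 7.15 to 173. Among the 1000 strongest peaks were 6 of the family (6.82% of its peaks, against 5.77% of all peaks on the main chromosomes). A deposited −log10 q of at least 2 was reached by 56.8% of the family's peaks and 57.5% of all assigned peaks. Genes with a peak had 1.60 peaks on average, against 2.24 over all genes with a peak. One peak was found for 29 genes, 2 peaks for 21, 3 peaks for Atp5d, Atp5g2, Atp5g3 and Ndufa7, and 5 for Cox4i2. A promoter peak alone was found for 40 genes, a distal peak alone for 7, and both for 8.

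**Figure D1:**
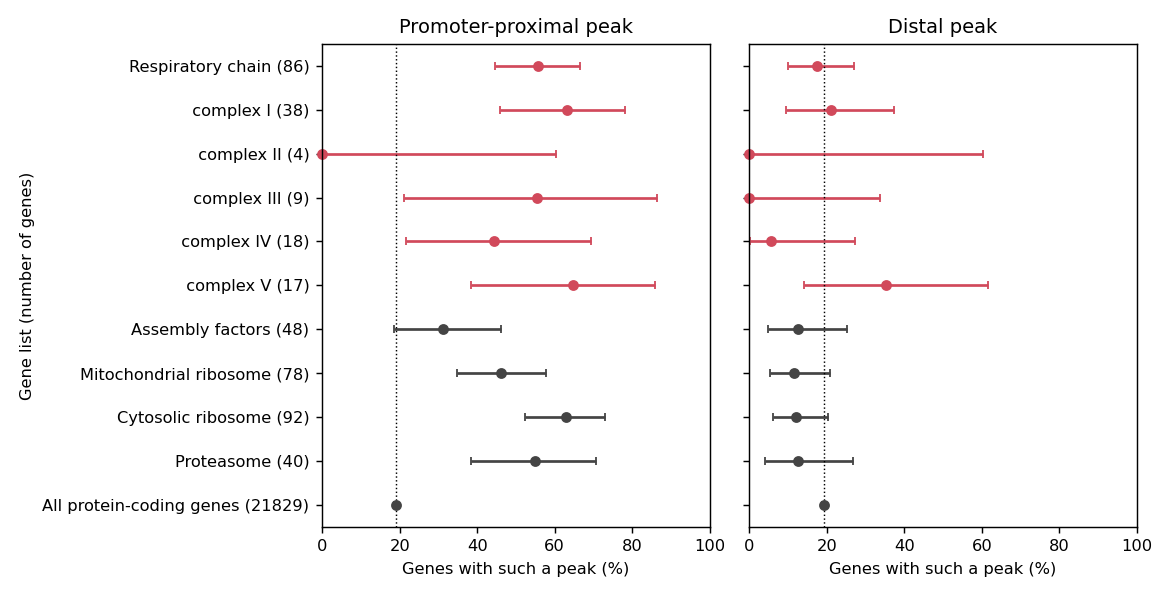
Share of genes with an assigned promoter-proximal (left) or distal (right) EP300 peak in percent, for the respiratory chain, its complexes, other gene lists and all protein-coding genes; bars on the points are exact 95% intervals. The respiratory chain lies at 55.8% for promoter-proximal peaks against 19.0% of all genes, and at 17.4% against 19.3% for distal peaks.

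Complex V had a peak at 14 of 17 genes (82.4%, interval 56.6% to 96.2%, against 31.9% of all genes), with 27 peaks. Atp5b, the catalytic beta subunit, had the strongest peak of the family, with a signal of 173 and its summit 102 bp upstream of the TSS, at chr10:128083081-128083278. The same site had a signal of 97.2 in replicate 1, where it was call 55 in order of signal, and 75.9 in replicate 2, where it was call 64. Both libraries thus placed it near the top of lists of 300000 calls each. Atp5l, a small membrane subunit, had a peak of 83.0 at 100 bp upstream, which ranked 1396 in replicate 1 and 469 in replicate 2. Atp5e, the epsilon subunit of the central stalk, had a peak of 80.9 at 64 bp upstream, with ranks of 957 in replicate 1 and 1540 in replicate 2.

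The other catalytic-head and stalk genes of complex V had lower peaks. Atp5a1, the alpha subunit, had peaks of 40.4 and 12.2. Atp5d, the delta subunit, had 37.4, 23.9 and 7.15, and Atp5c1, the gamma subunit that turns inside the head, had 19.8 and 17.3. Atp5o, the stalk protein that confers oligomycin sensitivity, had a promoter peak of 15.8 and a distal one of 20.3. The genes Atp5g1, Atp5g2 and Atp5g3 encode the same mature subunit of the membrane ring with different import sequences, and all 3 had promoter peaks. Their strongest were 57.5 for Atp5g1, 43.7 for Atp5g2 and 45.9 for Atp5g3. No peak was assigned to Atp5f1, Atp5j2 or Atp5k.

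Complex I had a peak at 27 of 38 genes (71.1%, interval 54.1% to 84.6%, against 31.9% of all genes). Its peaks numbered 41, 30 of them promoter-proximal. Ndufa4, first described in complex I and now counted with complex IV, had the second strongest peak of the family, 127 at 150 bp upstream of the TSS. It ranked 260 in replicate 1 with a signal of 64.2, and 142 in replicate 2 with 59.3. Ndufa11, a membrane-arm subunit, had a peak of 81.5 at 14 bp upstream, with ranks of 870 in replicate 1 and 1313 in replicate 2. Ndufs7, which carries the last iron-sulfur cluster before ubiquinone, had 71.8 at 139 bp downstream, with ranks of 607 and 1738.

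Among the remaining core genes of complex I, Ndufv1, which binds NADH, had a promoter peak of 48.9. Ndufs1, the largest core subunit, had 39.9 and 37.4, Ndufv2 had 25.2 and 8.54, and Ndufs8 had 19.9 and 8.12. The remaining Ndufa, Ndufb and Ndufc genes with a promoter peak, which encode accessory subunits, had strongest promoter signals between 13.7 (Ndufa12) and 39.6 (Ndufb9). Ndufs4, a subunit needed for a stable complex, had a promoter peak of 26.6. The lowest strongest peak of any family gene with a peak was that of Ndufs5, at 9.17, with no call of either replicate within 100 bp. Within 1 kb of the Ndufs5 start, replicate 1 did hold a call of 15.7 at rank 12829, and replicate 2 a call of 10.5 at rank 17886. No peak was assigned to Ndufa1, Ndufa4l2, Ndufa5, Ndufa9, Ndufab1, Ndufb2, Ndufb7, Ndufb10, Ndufb11, Ndufs3 or Ndufv3.

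Complex III had a peak at 5 of 9 genes (55.6%, interval 21.2% to 86.3%, against 31.9% of all genes), with 6 peaks, all promoter-proximal. Uqcrq, a small subunit, had 51.2 at 75 bp upstream. Cyc1, the cytochrome that hands electrons to cytochrome c, had 50.1 at 21 bp upstream, with ranks of 2905 in replicate 1 and 5173 in replicate 2. The core proteins Uqcrc1 and Uqcrc2 had strongest peaks of 40.8 and 24.3, and Uqcrb had 25.9. No peak was assigned to Uqcr10, Uqcr11, Uqcrh or Uqcrfs1, the Rieske iron-sulfur protein.

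Complex II had no peak in the optimal list at any of its 4 genes, against 31.9% of all genes. That count allows a share of up to 60.2% (exact 95% limit). The libraries nevertheless held calls within 1 kb of these starts. Sdha, the flavoprotein that oxidises succinate, had a call of 14.7 at rank 14505 in replicate 1 and none in replicate 2. Sdhb, the iron-sulfur subunit, had 22.5 at rank 6153 in replicate 1 and 8.02 at rank 35794 in replicate 2. The membrane anchor Sdhc had 8.07 at rank 51635 in replicate 1 and 11.8 at rank 13969 in replicate 2. The other anchor, Sdhd, had 19.2 at rank 8705 and 11.3 at rank 15320. Counted in replicate 1 alone, over as many leading calls as the optimal list holds, 3 of the 4 genes had an assigned peak, and in replicate 2 alone only Sdhd did.

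Complex IV had a peak at 9 of 18 genes (50%, interval 26% to 74.0%, against 31.9% of all genes), with 14 peaks. Its paralogues differed. Cox5a, which binds the core of the enzyme, had 71.9 at 97 bp upstream, with ranks of 4427 in replicate 1 and 351 in replicate 2. Cox7a2l, which links complexes III and IV into a supercomplex, had 70.4 at 117 bp upstream, with ranks of 857 in replicate 1 and 2629 in replicate 2. Cox6a2, the muscle form, had 46.5 at 10 bp upstream, and its promoter region held calls at rank 3332 of replicate 1 and 7436 of replicate 2. Its widely expressed partner Cox6a1 had none, with calls within 1 kb at rank 35119 of replicate 1 and 184375 of replicate 2. Both libraries thus ranked the muscle form first.

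The other paralogue sets did not share that order. Cox8b, the muscle form, had 43.1 at 52 bp upstream, and Cox8a, the widely expressed form, had 34.6 at 97 bp downstream. Within 1 kb of the start, Cox8b ranked 3085 in replicate 1 and 49157 in replicate 2, and Cox8a ranked 3533 and 11978, so the replicates did not give Cox8a and Cox8b in the same order. Cox8c, a testis form, had no call in any list. Cox7a1, the muscle form, had 21.1 and 10.1, and Cox7a2, the widely expressed form, had 46.9. Within 1 kb of the start, Cox7a1 ranked 26570 and Cox7a2 2356 in replicate 1, and in replicate 2 they ranked 20666 and 8938. Within 100 bp of their strongest summits, however, replicate 2 ranked Cox7a1 20666 and Cox7a2 76683, the reverse of the order in replicate 1.

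Cox4i1, Cox6b1 and the testis form Cox6b2 had no assigned peak. Cox4i1, a widely expressed subunit, had no call of replicate 1 within 1 kb of its start and 1 at rank 78195 in replicate 2. Cox6b1 ranked 71259 in replicate 1 and 76451 in replicate 2. Cox7b had a promoter peak of 35.0, and the testis form Cox7b2 had none, with calls at ranks 115374 and 259733. No peak was assigned to Cox5b, Cox6c or Cox7c either. The intervals of complexes I, III, IV and V overlap, and the differences between complexes were not tested. The intervals of complexes I and V lay above the 31.9% of all genes, and those of complexes II, III and IV included it.

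**Figure D2:**
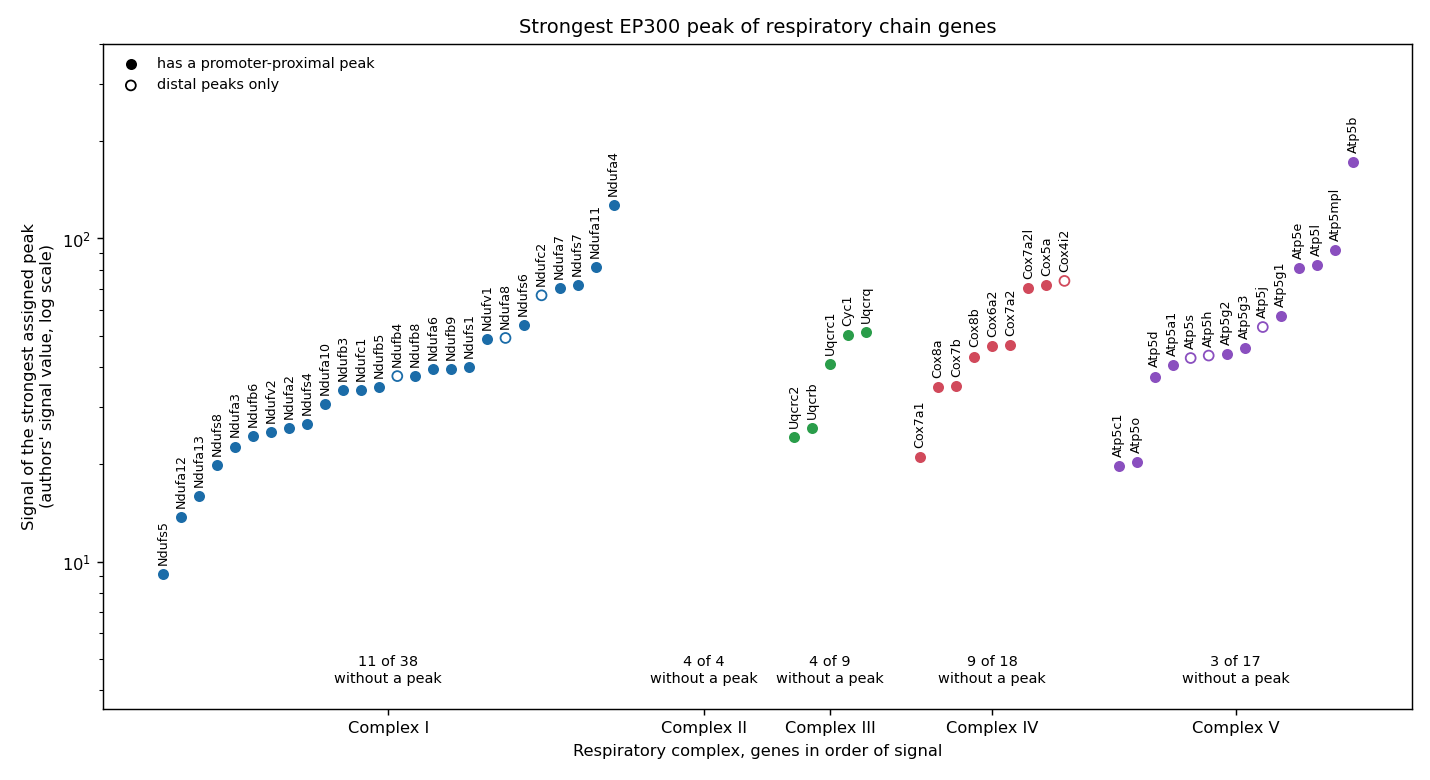
Signal of the strongest assigned EP300 peak of respiratory chain genes (authors' signal value, log scale), genes ordered by signal within complexes I to V; filled points have a promoter-proximal peak, open points distal peaks only, and genes without a peak are counted at the foot. Atp5b (173) and Ndufa4 (127) stand above all others, and complex II has no point.

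Promoter summits lay close to the TSS, on either side of it. Of the 65 promoter peaks, 34 summits were upstream and 31 at the TSS or downstream, with a median position of −1 bp. Within 150 bp of the TSS were 44 of 65 (67.7%), against 56.0% of all promoter-proximal peaks. The median distance was 100 bp, against 128 bp for all promoter-proximal peaks. Among the 15 genes with the strongest peaks, the summits of Atp5b, Ndufa4, Atp5l, Ndufa11, Atp5e, Cox5a, Cox7a2l and Atp5g1 were upstream, between 14 and 271 bp away. The promoter summits of Ndufs7, Atp5mpl, Ndufa7 and Ndufs6 were downstream, at 139, 4, 188 and 301 bp.

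**Figure D3:**
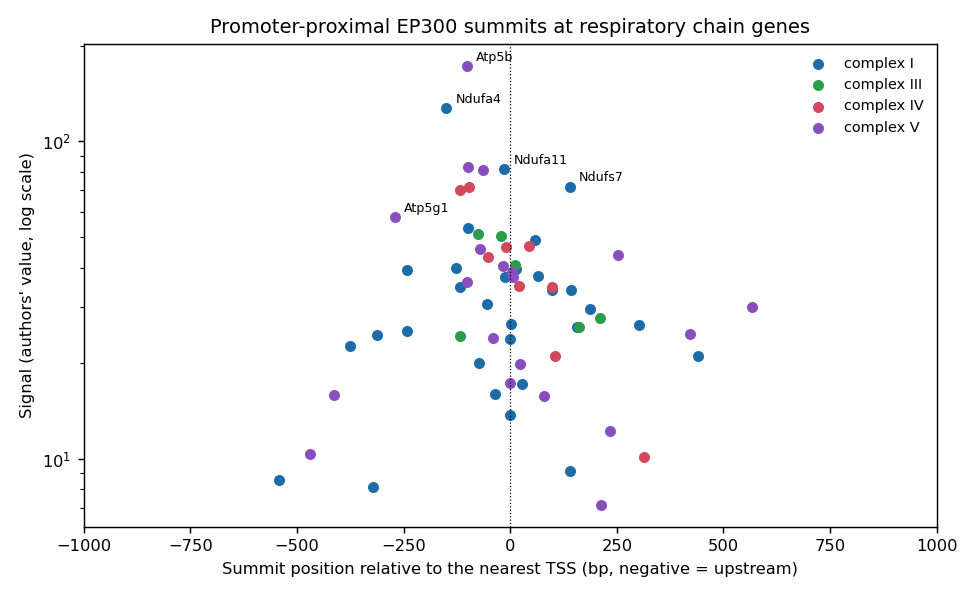
Signal (authors' value, log scale) of the 65 promoter-proximal EP300 peaks of respiratory chain genes against the position of the summit relative to the nearest TSS in bp, coloured by complex. Most summits (44 of 65) lie within 150 bp of the TSS, and the strongest, at Atp5b and Ndufa4, lie 102 and 150 bp upstream.

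The 23 distal peaks belonged to 15 of the 86 genes (17.4%, against 19.3% of all genes). The median distance of these peaks from the TSS was 25927 bp, against 17907 bp for all distal assigned peaks. Their median signal was 37.5, against 30.6 for all distal assigned peaks. By position 12 were intergenic, 7 intronic and 4 exonic, and 3 lay inside the assigned gene itself, at Ndufa7 and Ndufs4. Another 8 lay inside another gene, so the rule of the nearest TSS gave them to the respiratory chain although they sit in Bcl2l1, Jam2, Cdkl1, Mum1 or Hgd.

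The strongest distal peak stood at Atp5mpl, a small subunit of complex V, with 92.1 at 21651 bp downstream of the TSS (chr12:111945145-111945362). It ranked 871 in replicate 1 and 515 in replicate 2, and exceeded the same gene's promoter peak of 38.6. Its sequence (chr12:111945143-111945342, plus strand, matches in capitals) holds an E-box CAGCTG and, on the minus strand, the GATA motif AGATAAG.
Atp5mpl distal: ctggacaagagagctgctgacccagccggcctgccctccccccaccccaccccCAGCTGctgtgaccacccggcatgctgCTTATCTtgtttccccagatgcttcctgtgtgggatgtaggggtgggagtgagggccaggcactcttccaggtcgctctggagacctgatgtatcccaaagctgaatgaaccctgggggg

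Cox4i2, a form of the Cox4i subunit induced by low oxygen, had 5 distal peaks and none at its promoter. Their signals were 73.9, 58.1, 33.5, 28.2 and 14.2, and 4 of the 5 lay in introns of Bcl2l1, which encodes a survival protein. The strongest ranked 603 in replicate 1 and had no call of replicate 2 within 100 bp, although a call of replicate 2 at rank 1272 matched the summit of 28.2. Ndufa7, an accessory subunit of complex I, had a peak of 70.2 in its own exon 4590 bp downstream. The genes with distal peaks alone were Atp5h, Atp5j, Atp5s, Cox4i2, Ndufa8, Ndufb4 and Ndufc2. Ndufc2 had 66.7 in intergenic DNA 7765 bp upstream, and Ndufs6 had 53.8 at 29458 bp downstream. Beyond the limit of 100 kb, and so not counted, Ndufa10 was the nearest gene to peaks of 65.9 at 136061 bp and 53.2 at 129823 bp, and Cox6c to 1 of 28.2 at 130547 bp.

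Shared promoters affect how this family is counted. Another protein-coding TSS lay within 1 kb of 31 of the 86 genes, and 20 of the 65 promoter peaks had another gene's TSS within 1 kb. Among these 20 were the peak of 127 at Ndufa4, near a TSS of Phf14, and that of 81.5 at Ndufa11, near a TSS of Vmac. Distance alone gave them to the family. Atp5f1, the b subunit of the peripheral stalk of complex V, had no assigned peak because the summit within 1 kb of its start was nearer to Wdr77. That summit had a signal of 238, above every peak assigned to the family, and ranked 28 in replicate 1 and 6 in replicate 2. Ndufs3 likewise lay within 1 kb of a peak of 34.9 assigned to Kbtbd4, and Uqcrh of 1 of 53.1 assigned to Lrrc41. Atp5j, which had a distal peak, also lay within 1 kb of a summit of 55.8 assigned to Gabpa, the gene of the ETS factor GABP. Counting any summit within 1 kb of an own TSS gave 52 of 86 genes (60.5%), against 21.3% of all genes.

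The 31 genes without an assigned peak often had calls in the less strict lists. The list called on the pooled reads, before selection by IDR, held a call within 1 kb of 26 of them (83.9%), against 41.2% of all protein-coding genes without an assigned peak. For 8 of the 31 (25.8%) the call ranked within the first 17372, against 7.16% of all such genes, and 3 of the 8 are Atp5f1, Ndufs3 and Uqcrh, whose peaks went to neighbours. Ndufab1, the mitochondrial acyl carrier protein, had such a call of 34.6 at pooled rank 7237, with ranks of 5248 in replicate 1 and 10477 in replicate 2, and is not in the optimal list. The pooled list runs to 300000 calls, so a low-ranked call there is weak evidence of binding. No assigned peak in the optimal list or in the leading calls of either replicate was found for 18 genes. Among them were Cox4i1, Cox5b, Cox6a1, Cox6b1, Uqcr10, Uqcr11, Ndufb2 and Sdhc. The like count over all genes is not given, so the 18 cannot be set against genes at large. At Atp5f1, Sdhc and Ndufb11 a leading call did lie within 1 kb of the start but nearer to another gene's.

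The replicates gave the same picture of the family as a whole and differed gene by gene. Taking as many leading calls by signal as the optimal list holds, replicate 1 alone had a peak at 54 of 86 genes, against 35.0% of all genes, and replicate 2 alone at 51, against 33.0%. For promoter-proximal peaks the counts were 47 in replicate 1, against 22.2% of all genes, and 41 in replicate 2, against 18.1%. In each replicate alone 42 genes had a peak, 40 of which also had a peak in the optimal list, and 33 had a promoter peak in each. No such overlap over all genes is given beside these counts. The optimal list was drawn from the same libraries, so its overlap with them is no independent test. Of the 88 peaks, 32 (36.4%, interval 26.4% to 47.3%) had a summit within 100 bp among the leading calls of both replicates, against 40.2% of all assigned peaks. Only 1 replicate held 39 of them and neither held 17. In replicate 1, 59 were found, and in replicate 2, 44.

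Across the 71 genes with a call of both replicates within 1 kb of the start, the strongest signals of the replicates correlated with Spearman's rho at 0.670 and Pearson's r at 0.883. This is a description across genes, which are not independent replicates, and both libraries share a tissue source. Atp5b and Ndufa4 were high in both, and so was the start of Atp5f1. Cox5a ranked higher in replicate 2 than in replicate 1, and the summit of Cox4i2's strongest distal peak had a call within 100 bp in replicate 1 alone, with the call of replicate 2 at the overlapping peak. The stricter conservative list had a peak at 44 of 86 genes, against 29.3% of all genes, and a −log10 q of at least 2 left 41, against 24.5%.

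**Figure D4:**
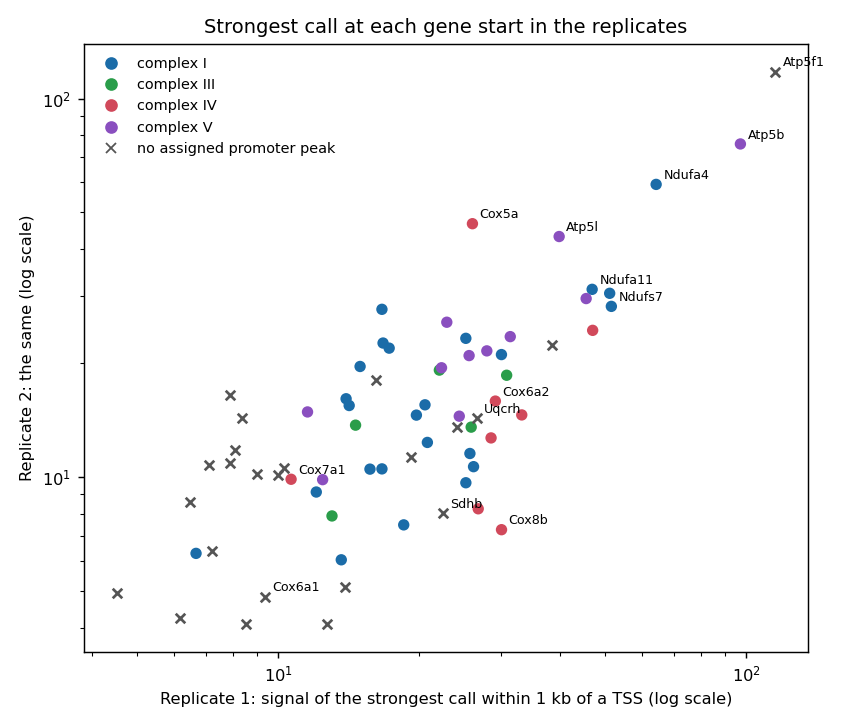
Strongest call within 1 kb of each respiratory chain gene's start in replicate 2 against replicate 1 (authors' signal values, log scales), for the 71 genes with a call in both; points are coloured by complex and crosses mark genes without an assigned promoter peak. Atp5f1, Atp5b and Ndufa4 lie at the upper right, and Cox6a1 lies below Cox6a2 in both replicates.

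Of 16 motifs searched on both strands of the 200 bp at promoter summits, the element AAGGTCA was the most frequent in the family. It was found in 13 of 65 promoter peaks (20%, interval 11.1% to 31.8%), against 2.79% of all promoter-proximal peaks and 2.37% of the windows at the starts of all protein-coding genes. These 13 were at Atp5l, Atp5e, Uqcrq, Atp5g3, Atp5g2, Atp5a1, Ndufs1, Atp5mpl, Cox8a, Ndufc1, Uqcrc1, Ndufa2 and Atp5c1. Complex V thus gave 7, complexes I and III gave 3 and 2, and complex IV gave 1. The longer ERR site TCAAGGTCA, which contains the element, was found at Atp5g3 and Ndufa2 (3.08%, interval 0.375% to 10.7%, against 0.430% of all promoter-proximal peaks). The interval includes the share over all promoter-proximal peaks. For the ERR site the share was 1.69% in replicate 1 alone and 2.0% in replicate 2 alone. Only these exact letters were searched, so ERR sites spelled otherwise were not counted. A match is a description of the letters and no evidence that a factor was bound.

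Matches lay at a median of 33 bp from the summit. Only the 200 bp centred on the summit were searched, so no match could lie far from it. No such distance is given for all promoter-proximal peaks. The 13 peaks with the element had a median signal of 39.9, between 19.8 and 83.0, and the 52 without it had 28.1, between 7.15 and 173. Both replicates held 8 of the 13 with it and 13 of the 52 without it. The 52 include second summits at promoters whose other summit had the element, weaker ones except at Uqcrc1. Their part in these contrasts was not tested. Counted around the annotated starts instead, 8 of 86 genes had the element (9.30%), at 10.4% of the genes with a promoter peak and 7.89% of those without. In the promoter peaks of other large housekeeping families it was found in 2 of 49 at mitochondrial ribosome genes (4.08%), 3 of 82 at cytosolic ribosome genes (3.66%) and 0 of 26 at proteasome genes, which allows up to 13.2%. The comparison with those families was not tested.

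Sites of the classical regulators of these genes were present in part. The NRF1 core CGCANGCGC was found in 8 of 65 promoter peaks (12.3%, interval 5.47% to 22.8%), against 4.99% of all promoter-proximal peaks. These were at Atp5c1, Atp5d, Atp5g3, Atp5mpl, Ndufa11, Ndufa12, Ndufa13 and Uqcrc1. Around the annotated starts it was found at 23.3% of the 86 genes, at 20.8% of those with a promoter peak and 26.3% of those without, against 7.0% of all genes. The YY1 motif AAGATGGCG was found in 5 peaks (7.69%, interval 2.54% to 17.0%, against 2.53%), at Atp5a1, Atp5g2, Ndufs4, Ndufs8 and Uqcrc1. The lower limit of that interval lies next to the share over all promoter-proximal peaks. For YY1 the share was 4.0% in replicate 2 alone and 10.2% in replicate 1 alone. The ETS motif CCGGAAGT, the site of GABP, was found in 3 (4.62%, against 6.78%), and the interval includes the share over all promoter-proximal peaks.

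For the motifs of general promoters and of heart factors, no interval of the family lay above the share over all promoter-proximal peaks. The SP/KLF motif GGGGCGGG was found in 4 of 65 (6.15%, interval 1.70% to 15%), against 15.3% of all promoter-proximal peaks. The family's promoter windows had a median GC content of 57.5%, against 62.0% for all promoter-proximal peaks, and the part of base composition in these shares was not tested. The E-box CAGCTG was found in 13.8% against 11.6%, and the E-box CACGTG in 3.08% against 7.92%. TEAD (GGAATG) reached 3.08% against 9.16%, but 8.0% in the promoter peaks of replicate 2 alone, for which no share over all peaks is given. MEF2 reached 1.54% against 1.84%, its match being that of Cox6a2. The GATA factor motif AGATAAG was found in 0 of 65, against 1.74%. CREB (TGACGTCA), NFY (AGCCAAT), ZNF143 (CCCAGNATG), AP-1 (TGANTCA) and the steroid receptor motif (ACANNNTGT) were found in 1.54% to 4.62%, against 1.38% to 6.35%.

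**Figure D5:**
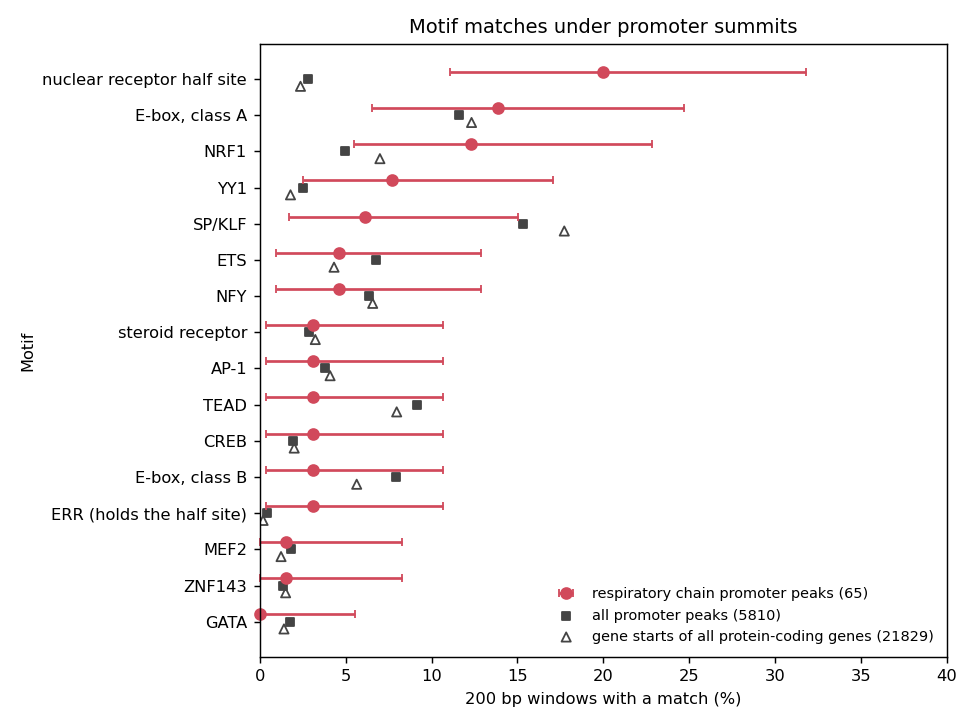
Share of 200 bp windows with a match to each of 16 motifs in percent, for the 65 respiratory chain promoter peaks (circles with exact 95% intervals), all 5810 promoter-proximal peaks (squares) and the starts of all 21829 protein-coding genes (triangles). The nuclear receptor element is at 20% in the family against 2.79% of all promoter-proximal peaks, and SP/KLF at 6.15% against 15.3%.

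The same count was made for other genes of the pathway. Assembly factors, which build the complexes without being part of them, had a peak at 18 of 48 genes (37.5%, interval 24.0% to 52.6%, against 31.9% of all genes), a share near that of all genes, and a promoter-proximal peak at 31.3%, against 19.0%. Cox11, which delivers copper to complex IV, had a peak of 104, and Cox20 had 5 peaks with 74.0 at most. The haem synthesis gene Cox10 and the gene Cox14 had distal peaks of 62.7 and 54.8. Of 15 carriers and regulators 10 had a peak (66.7%, interval 38.4% to 88.2%, against 31.9% of all genes), with 34 peaks in all. Ppargc1a had 9 peaks with 148 at most, Ppargc1b 4 with 150, Esrrg 4 with 46.7 and Esrra 2 with 42.2. Ppara, a receptor that drives fatty acid oxidation, had 2 with 49.8, and Tfam, which packages mitochondrial DNA, had 1 of 35.7. No peak was assigned to Cycs, the gene of cytochrome c, or to Nrf1, Pprc1, Tfb1m or Tfb2m.

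Other large housekeeping families also had promoter peaks more often than all genes. Promoter-proximal peaks were found at 46.2% of 78 mitochondrial ribosome genes, 63.0% of 92 cytosolic ribosome genes and 55.0% of 40 proteasome genes, and distal peaks at 11.5%, 12% and 12.5%. Marker genes of heart muscle had a peak at 10 of 11 with 121 peaks, all but Myl7, and those of endothelium at 6 of 6 with 33. Fibroblast markers had a peak at 3 of 5 with 3 peaks in all, and neuron and liver markers at 1 of 3 each (Rbfox3 and Ttr). Those of smooth muscle (0 of 3) and of blood and macrophages (0 of 4) had none. Of all genes 31.9% had a peak. The exact intervals of the fibroblast, neuron, liver, smooth muscle and blood lists include that share. These lists are too short to tell whether they differ from genes at large.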

How the data were processed

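EP300 ChIP-seq peaks of newborn mouse heart came as 5 lists on mm10: replicate 1, replicate 2, pooled, and the conservative and optimal IDR lists. Per the file headers, replicate 1 was called with 2 control alignment files, replicate 2 with 1 and the pooled reads with 2. Aligner, peak caller and IDR cut-off were not given in the sources used here. The deposited signal value is the authors' peak height. Peaks were ranked by it within a list, and values of different lists were set side by side only as a description. The deposited −log10 q was taken as given, as was the deposited score, which scales the IDR. No read counts were among the files, so depth is unknown.

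The 17339 peaks on the main chromosomes were assigned to the nearest of 54361 protein-coding TSSs of 21829 genes (GENCODE M21) within 100 kb. Merged sites join summits within 496 bp, and calls are often closer than that. Motifs were matched as exact letters on GRCm38. Shares carry exact 95% intervals; no test was run. The scripts were tested on simulated data, and ran under Python 3.11.15 with matplotlib 3.10.9, pysam 0.24.0, SciPy 1.17.1, pandas 2.3.3 and numpy 2.4.6.

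The members and lists were chosen with earlier results of these data known. Named with values are the 15 genes with the strongest peaks, the 5 with most peaks, the paralogue sets, the complex II genes and Cyc1; other genes named with values were chosen after their values were seen. The values of 1 gene under this rule and 1 sequence are not reported here. The alternatives were the conservative list, each replicate alone, −log10 q of at least 2, merged sites, 10 kb assignment, 1 TSS per gene, other promoter and sharing distances and other motif windows. An added alternative, chosen after seeing the data, counts any summit within 1 kb of an own TSS. Peaks of the mitochondrial genome and unplaced contigs (33) were left out.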

Additional observations from a re-analysis of the deposited data

Results flagged for a closer look

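The optimal list holds 25 peaks on the mitochondrial genome, which encodes the remaining subunits of complexes I, III, IV and V and was outside the gene rule. The replicate 2 list held 21 mitochondrial calls and the replicate 1 list 0, the pooled list held 25, and the conservative list 0. In the optimal list their signal was between 7.81 and 54.4. Of the 25 summits, 17 lay in protein-coding genes, at 7 of the 13 such genes. The complex I gene mt-Nd5 held 4, including the strongest of 54.4, mt-Cytb and mt-Co1 held 3 each, mt-Nd1, mt-Nd2 and mt-Nd6 held 2 each, and mt-Nd4 held 1. The signal was marked because it lies outside the nuclear genes counted here and was called in 1 replicate only. Its source was not tested.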

How the results depend on the processing

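The number of genes with a peak (55) stayed within 1.5 times under all 8 alternatives, at 54 without replicate 2, 51 without replicate 1, 44 in the conservative list, 41 at a −log10 q of at least 2, and 52 by the added count of own starts. The number of peaks (88) fell to 50 at that q. The promoter-proximal share (73.9%) was 89.0% within 10 kb, where the share over all peaks was 63.5%. The median signal (34.0) was 15.7 without replicate 1, 22.1 without replicate 2, and 44.1 at that q, each list having its own scale. The share found in both replicates (36.4%) was 21.6% within 50 bp and 65.9% for any overlap. The AAGGTCA share (20%) was 12.3% in 100 bp windows, 29.2% in 400 bp windows, 24.5% in the conservative list, 22% without replicate 2 and 16.0% without replicate 1. SP/KLF (6.15%) was 1.54% in 100 bp and 15.4% in 400 bp windows. Motif shares over all promoter-proximal peaks are given for 200 bp windows of the optimal list only. They are therefore no match for the family's shares in other windows or lists. CAGCTG (13.8%) was 4.62% in 100 bp windows and 6.12% in the conservative list. CACGTG (3.08%) was 10.8% in 400 bp windows and 12% without replicate 1 but 1.69% without replicate 2, and the steroid receptor motif (3.08%) was 0% without replicate 2 and 4.0% without replicate 1. The cause of these moves was not tested. The other 73 of 80 motif shares stayed inside the interval of the main value. Among these, leaving out 1 library moved some by over 1.5 times: without replicate 1, YY1 (7.69%) was 4.0%, TEAD (3.08%) 8.0%, NFY (4.62%) 10% and ERR and CREB (3.08% each) 2.0%, and without replicate 2 ERR and CREB were 1.69%. No paired analysis was possible because there is 1 group. Depth is unknown, so a gene without a peak cannot be called unbound.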
